A study of Mus musculus with 4 samples.

Results

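Krueppel-like factors (KLFs) are transcription factors that bind CACCC and GC-rich DNA through classical zinc fingers, and 10 of their genes, Klf2, Klf3, Klf4, Klf6, Klf7, Klf9, Klf10, Klf11, Klf13 and Klf16, were followed here in endothelial cells (ECs) of the growing mouse retina. The members were taken by gene symbol from a set list, and make up 10 of the 17 KLF genes and 10 of the 26822 genes in the table. The 4 RNA-seq libraries form 1 group: ECs (CD31+/CD45-), labelled as controls, sorted from pairs of retinas of C57BL/6J pups at postnatal day 6 (P6), with no transgene, mutant or second tissue named in the labels. The values deposited by the authors are read counts that were normalised between libraries and rounded, so they are given below as normalised counts, as mean ± SD over n = 4 libraries. With 1 group there is no treatment to compare, and the comparisons are between genes and between libraries.

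KLF2 and KLF4 are best known in vessels: laminar blood flow raises both through the kinases MEKK3, MEK5 and ERK5 and the MEF2 factors, and they in turn raise anticoagulant and vasodilator genes and hold back inflammatory ones. The family falls into an activator group that binds acetyltransferases (KLF2, KLF4, KLF6 and KLF7 here), a repressor group that recruits the corepressor CtBP (KLF3), and a group that recruits SIN3 and histone deacetylases (KLF9, KLF10, KLF11, KLF13 and KLF16). Since paralogues of all groups can bind like sites, the level of each transcript beside the others describes which of them a cell carries.

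Total normalised counts lay between 14844071 and 15017432 per library, and 15012 genes with a mean of at least 10 are called detected. The EC label held: all 11 endothelial markers were detected and summed to between 59842 and 62958 in the libraries, whereas 8 microglia and leukocyte markers summed to between 28 and 113. Library 4 stood apart. Its 10 photoreceptor markers summed to 14563 against 4903 to 6191 in libraries 1 to 3, and each of them was highest there. Its 10 pericyte and smooth muscle markers summed to 3801 against 586 to 2246, with 8 of the 10 highest there. In such bulk samples fewer cells of a type and less RNA per cell cannot be told apart. Library 2 differed too: its 6 astrocyte markers summed to 161 against 838 to 1461 elsewhere, and its pericyte markers were the lowest. The progenitor and Müller glia markers summed to 8266 in library 4 and to between 6230 and 7420 elsewhere. The labels do not tie the libraries to separate pups, and p-values therefore cover only the spread between these 4 samples, technical spread included.

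The proteins show how closely the 10 factors are related where they touch DNA. Translated from the GENCODE M21 reading frames, every member carried 3 zinc fingers within 81 residues at the C-terminal end. Identity over these residues ran from 60.5% for KLF6 and KLF9 to 95.1% for KLF6 and KLF7, with a median of 69.1% over the 45 pairs. KLF2 and KLF4 shared 91.4%, KLF10 and KLF11 86.4%, and KLF9 and KLF13 81.5%. Between 1 and 3 residues followed the fingers in KLF2, KLF3, KLF4, KLF6 and KLF7, whereas the SIN3 group ended 19 residues (KLF9) to 43 residues (KLF16) later. A motif for CtBP binding (Pro-X-Asp-Leu-Ser or Thr, where X is any residue) was found in KLF3 and, outside the 10 members, in KLF8 and KLF12.

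The coding bases of the last finger, from its first cysteine to its last histidine (63 bases, 21 codons, GENCODE M21 on GRCm38), are shown for 5 members. These are the close paralogues Klf2 and Klf4, Klf3 of the CtBP group, and Klf10 and Klf9 of the SIN3 group. Capitals mark where the base differs from Klf2.
Klf2: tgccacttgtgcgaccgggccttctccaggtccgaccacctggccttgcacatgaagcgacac
Klf4: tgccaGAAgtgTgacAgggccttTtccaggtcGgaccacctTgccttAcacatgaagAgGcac
Klf3: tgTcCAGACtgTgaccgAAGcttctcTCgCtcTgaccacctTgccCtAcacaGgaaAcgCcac
Klf10: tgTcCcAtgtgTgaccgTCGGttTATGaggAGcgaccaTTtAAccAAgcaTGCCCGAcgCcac
Klf9: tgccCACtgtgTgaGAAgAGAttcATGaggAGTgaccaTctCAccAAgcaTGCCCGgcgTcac
Klf4 differed from Klf2 at 11 of these bases and 2 codons changed residue, so that most of its differences were silent. Klf3 differed at 20 bases and 4 residues, Klf10 at 28 bases and 8 residues, and Klf9 at 28 bases and 9 residues. Reads of 75 bases, the length that the study's methods give for human ECs, span more than this stretch. How reads that fit several genes were counted is not given in the sources used here.

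All 10 members were detected, with no library under 237 normalised counts for any of them, and 7 had a mean of at least 1000, a level reached by 35.2% of all detected genes. Longer transcripts give more reads, so levels of different genes are ordered below per kilobase of exon (kb, all exons of a gene merged, from GENCODE M21). The count at 1000 is on the scale as deposited, which favours long genes, as are the normalised counts given for each gene. Per kb, 8 members lay above the median of detected genes, which was 161 normalised counts per kb, and 2 lay above the 90th percentile of 854. The order ran Klf2, Klf10, Klf3, Klf6, Klf11, Klf13, Klf4, Klf7, Klf16 and Klf9, with 23.9-fold between the ends.

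**Figure D1:**
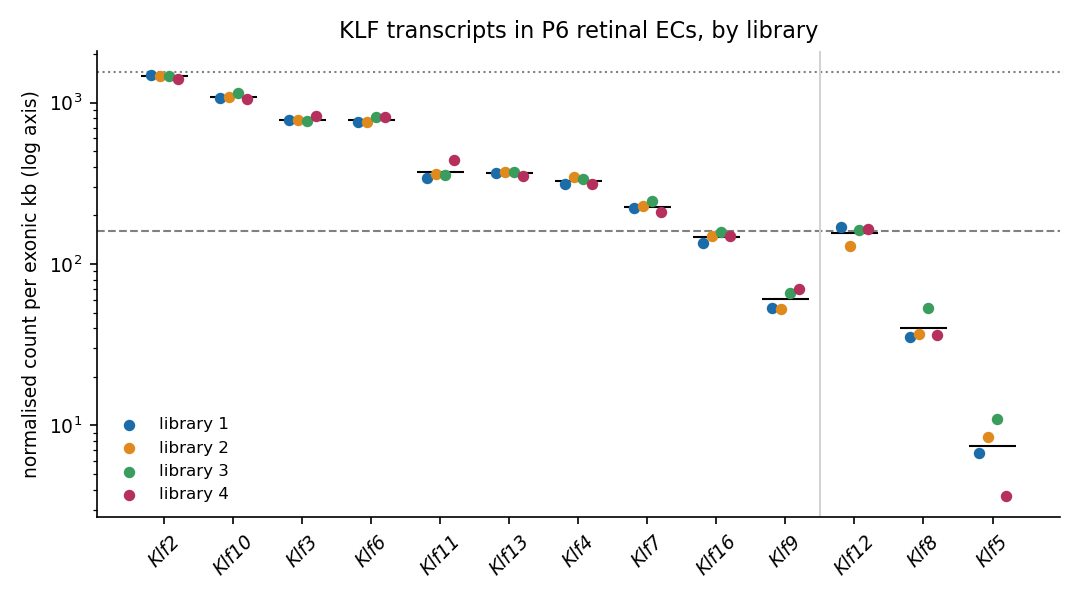
Normalised counts per exonic kb (log axis) of the 10 members and, right of the vertical line, the other 3 detected KLF genes, with 1 point for each of the 4 libraries and a bar at the mean. The dashed line is the median (161) and the dotted line the 99th percentile (1546) of detected genes, and Klf2 lies just under the latter while Klf9 and Klf16 lie under the former.

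In the activator group Klf2, the flow-induced factor that keeps ECs quiescent, was the highest member per kb. Its normalised counts were 2753, 2689, 2712 and 2569 in libraries 1 to 4. The 4 libraries lay close together, with library 4 lowest by a small margin. Per exonic kb this was 1451 ± 42.8, at the 98.4th percentile, and 246 detected genes were higher. The gene lies at chr8:72319033-72321656 (GRCm38, + strand) and its exons add up to 1847 bases, the shortest among the members.

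Klf4, a partner of Klf2 in ECs and also a factor used to reprogramme cells to pluripotency, had normalised counts of 950, 1051, 1017 and 947 (chr4:55527143-55532466, - strand, 3029 exonic bases). Every library was below every Klf2 value. Per kb the mean was 327 ± 16.9, at the 66.1st percentile. Klf2 was 4.44-fold higher than Klf4 per kb (log2 difference 2.15 ± 0.07, SD over libraries) and 2.70-fold higher as deposited. It was higher in 4 of 4 libraries, and the exact two-sided permutation test gave p = 0.0286, the smallest of its 70 splits, or 0.0321 after Benjamini-Hochberg adjustment over all pairs of detected genes. This test sets 4 values against 4 without pairing them by library, and an exact sign-flip test within libraries cannot give less than 0.125 here, so that no pair of genes would pass it. Klf2 lies near the upper end of the scale per kb, described further on, and whether this shortens its fold over lower genes was not tested.

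Klf6, an activator first described as a tissue injury and growth control gene, had normalised counts of 3223, 3193, 3413 and 3416 (chr13:5861482-5870394, + strand, 4225 exonic bases). Its close relative Klf7, known for its part in the growth of neuronal processes, had 1782, 1838, 1977 and 1698 over a longer transcript (chr1:64029447-64122282, - strand, 8050 exonic bases). These paralogues, with the most similar fingers of all members, did not overlap in level. Per kb Klf6 stood at 784 ± 28.4 and Klf7 at 227 ± 14.6, a 3.46-fold difference (1.82-fold as deposited, exact permutation p = 0.0286). The annotated Klf7 locus overlaps antisense gene models and a same-strand one, Mir6899, and none of these has a value here. The library kit named in the study's methods for human ECs keeps strand, while the counting setting is not stated.

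Klf3, the CtBP-binding repressor known from red cell and B cell development, had the highest mean of all members as deposited, with 4172, 4171, 4111 and 4439 normalised counts (chr5:64803388-64832901, + strand, 5386 exonic bases). Library 4 was the highest and the first 3 libraries were nearly equal. On that scale Klf3 and Klf10 overlapped, with Klf10 higher in library 3 (exact permutation p = 0.457). Divided by length, Klf3 reached 784 ± 27.2 per kb and could not be separated from Klf6 (log2 difference 0.00 ± 0.06, exact permutation p = 0.971). The sign of that difference turned with the library left out. A same-strand gene model within the locus, C230096K16Rik, had a mean of 222 normalised counts and an antisense one, Gm20033, 56.5, so that some Klf3 reads may be theirs or the reverse.

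The SIN3 group spanned most of the range. Klf10 encodes the TGF-beta-inducible early factor and had 4065, 4116, 4371 and 4023 normalised counts (chr15:38291463-38300706, - strand, 3830 exonic bases). Its paralogue Klf11, a second TGF-beta-inducible factor, had 1390, 1477, 1454 and 1790 (chr12:24651274-24662789, + strand, 4086 exonic bases). Klf10 was above Klf11 in every library, and library 4 was the lowest for Klf10 and by far the highest for Klf11. Per kb they stood at 1082 ± 40.8 and 374 ± 43.7, a 2.89-fold difference (exact permutation p = 0.0286).

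Klf13, a widely expressed factor known from T cells and the heart, had 2438, 2482, 2462 and 2335 normalised counts (chr7:63886351-63938915, - strand, 6669 exonic bases, with an antisense model, Gm27252, at a mean of 6.25). Klf9, which glucocorticoids and thyroid hormone raise in many tissues, had 241, 237, 295 and 315 (chr19:23141226-23168134, + strand, 4486 exonic bases). Klf16, described as a regulator of dopamine receptor genes, had 360, 397, 422 and 396 (chr10:80567124-80577321, - strand, 2674 exonic bases). Klf13 was far above the other pair in every library, and Klf16 above Klf9. Per kb the means were 364 ± 9.80 for Klf13, 147 ± 9.54 for Klf16 and 60.6 ± 8.69 for Klf9. Klf13 was thus 6.01-fold above Klf9 and 2.47-fold above Klf16 per kb, and Klf16 was 2.43-fold above Klf9 (exact permutation p = 0.0286 for each). Klf9 and Klf16 were the only members under the median of detected genes on both scales.

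Of the 45 pairs of members, 42 did not overlap in any library per kb, beside 89% of all pairs of detected genes, and a share near that background says nothing particular about these genes. The 3 that overlapped were Klf3 and Klf6, Klf11 and Klf13 (log2 difference 0.031 ± 0.20, exact permutation p = 0.914), and Klf11 and Klf4 (0.19 ± 0.20, exact permutation p = 0.0571). For Klf11 and Klf13 library 4 decided the sign: without it the log2 difference was -0.066, with Klf13 higher. The photoreceptor and pericyte markers that were highest in library 4 moved with Klf11 there, and their part in its value was not tested.

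The order rested in part on the scale. The order of 7 pairs turned between values as deposited and values per kb, and 4 of these overlapped on neither scale: Klf2 against Klf10, Klf3 and Klf6, and Klf4 against Klf7. Klf2 was 1.34-fold above Klf10 per kb (log2 0.42) but 0.647-fold of it as deposited (log2 -0.63). With the longest transcript as length (3044 in place of 3830 bases for Klf10) the lead of Klf2 shrank to log2 0.093, the values overlapped and the exact permutation p was 0.0571. Whether Klf2 or Klf10 led therefore rests on the length used. Klf2 stayed above Klf4 on each scale tried. For both of these genes the merged exons equal the longest transcript, so the choice of length could not change this pair.

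**Figure D2:**
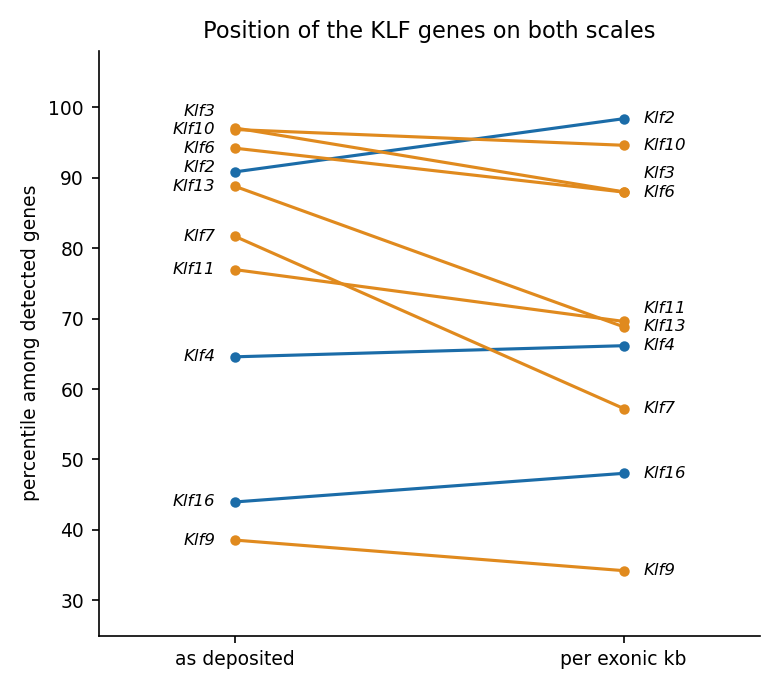
Percentile of each member among the detected genes, on the scale as deposited (left) and per exonic kb (right), with 1 line per gene, blue where the position rose and orange where it fell. Klf2 rises from the 90.8th to the 98.4th percentile, Klf13 falls from the 88.8th to the 68.8th and Klf7 from the 81.7th to the 57.2nd.

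Of the other 7 KLF genes 3 were detected. Klf12, a CtBP-binding repressor like Klf3, had 998, 759, 959 and 967 normalised counts (156 per kb), and Klf8, the third of that group, had 182, 189, 274 and 188 (40.4 per kb). Klf5, a factor of gut epithelium and smooth muscle, had 35, 44, 57 and 19. Klf12 lay near the median of detected genes (161) and its mean per kb was above those of the members Klf16 (147) and Klf9 (60.6), while the means of Klf8 and Klf5 were below those of all members. Klf15, known from heart and metabolic tissues, had 6, 6, 13 and 2, and Klf1, the erythroid factor, had 10, 0, 0 and 0. Klf14 and Klf17 were listed at 0 in all libraries. The 10 members held 96.4% of the summed KLF level per kb, of which Klf2 alone made up 25.0% (26.0%, 25.3%, 24.7% and 23.9% in libraries 1 to 4), Klf10 18.6%, and Klf3 and Klf6 13.5% each. By group, the activators held 48.2%, the SIN3 group 34.9% and the CtBP group 16.9%. These shares rest on the length used: with the longest transcript Klf10 stood at 1361 in place of 1082 per kb.

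The SP factors, which share the 3 fingers and bind the same GC boxes, included Sp3 with 3260, 3497, 3375 and 3104 normalised counts. Per kb Sp3 (791) was the highest of them and near Klf3 and Klf6. Sp2 (1183, 1214, 1115 and 1327) reached 354 per kb. Sp1, the founding member, had 842, 1089, 1078 and 617 and stood at 116 per kb, below 9 of the 10 KLF members. Sp5, a target of Wnt signalling, had 326, 298, 372 and 310, and Sp4, known from neurons, 214, 400, 482 and 348. Sp7 and Sp9, factors of bone and brain, had no value above 2.

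No member varied between libraries beyond the trend of SD on mean level, against 3.52% of the detected genes. The robust z of the members, their distance from the trend in units of its scatter, ran from -0.74 (Klf16) to 1.10 (Klf11) with a limit of 3. Their coefficients of variation lay between 2.69% (Klf13) and 14.3% (Klf9), with a median of 4.47%. The median SD of log2 values was 0.06 for the members and 0.16 for all detected genes, which are on the whole lower.

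Across genes, a small spread went with a high level per kb, in bins drawn after the values were seen. Among genes with a mean between 1000 and 4500, the median SD of log2 values was 0.12 in the 674 genes under 250 per kb, 0.10 in the 1614 genes from 250 to 500, 0.06 in the 1863 genes from 500 to 1000 and 0.03 in the 775 genes above. Klf2 (SD 0.04) and Klf10 (0.05) fell in the last of these bins. The scale was also short at its upper end: the 99th percentile was 1546 and the highest gene, Lrp8, stood at 2854 per kb. Ratios between Klf2 and lower genes were read on this scale, and what sets its upper end was not tested.

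**Figure D3:**
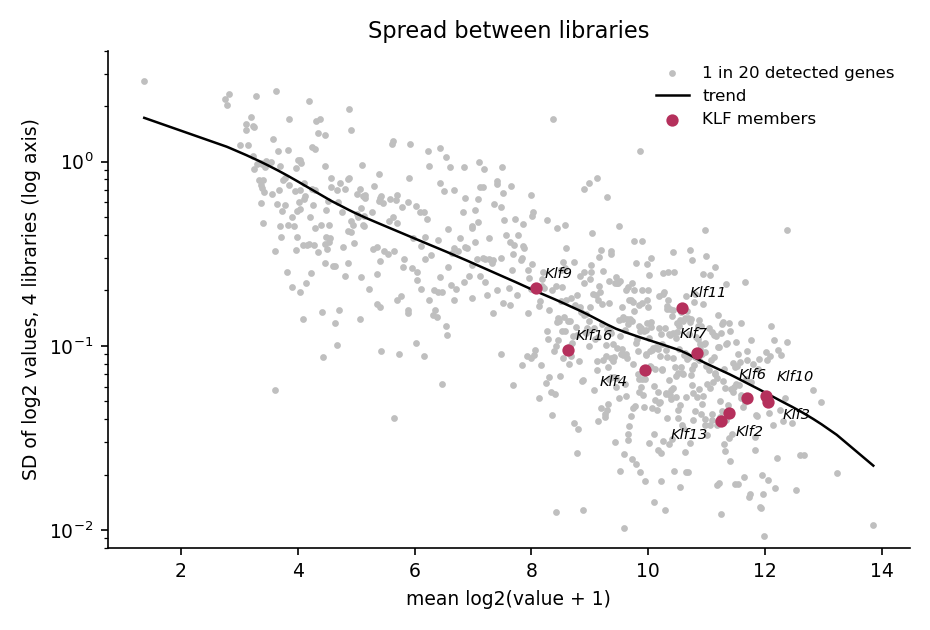
SD of log2 values over the 4 libraries (log axis) against the mean log2(value + 1), for 1 in 20 detected genes (grey), the trend over all of them (line) and the 10 members (red). Klf11 lies farthest above the trend (0.16 against 0.09) and Klf16 farthest below it (0.09 against 0.17).

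Library 4 was the highest library for 4 members (Klf3, Klf6, Klf9 and Klf11), beside 30.6% of all detected genes, and the lowest for 5, beside 33% of them. On the log2 scale library 4 minus the mean of libraries 1 to 3 lay between -0.13 for Klf7 and 0.31 for Klf11, with a median of -0.02. All members thus sat inside the 5th to 95th percentiles of detected genes (-0.64 to 1.27). Klf2 and Klf4, at -0.08 and -0.09, were slightly lower in library 4, and Klf9, at 0.30, was the second highest.

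Immediate early genes, which growth factors and stress raise within minutes, serve here as a comparison because some KLF genes are themselves early response genes. Of 18 such genes 17 were highest in library 4, with a median log2 difference of 0.61 and a range from -0.06 to 2.01, and 10 varied beyond the trend. Fos, an AP-1 subunit, had 1715, 1532, 2097 and 3008 normalised counts. Egr1 had 2918, 2801, 2720 and 4516, and Jun had 2512, 2399, 2578 and 3456. For each of these 3 genes library 4 was above all others. Atf3, a stress response factor, had 502, 622, 524 and 805, while Myc differed little with 2683, 2668, 2478 and 2778. Over the same libraries Klf2, Klf4, Klf6 and Klf10 stayed between -0.09 and 0.06. The 10 members together ran from -0.13 (Klf7) to 0.31 (Klf11), with Klf9 at 0.30. The values of the 2 sets of genes thus overlapped, and the difference between the sets was not tested.

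**Figure D4:**
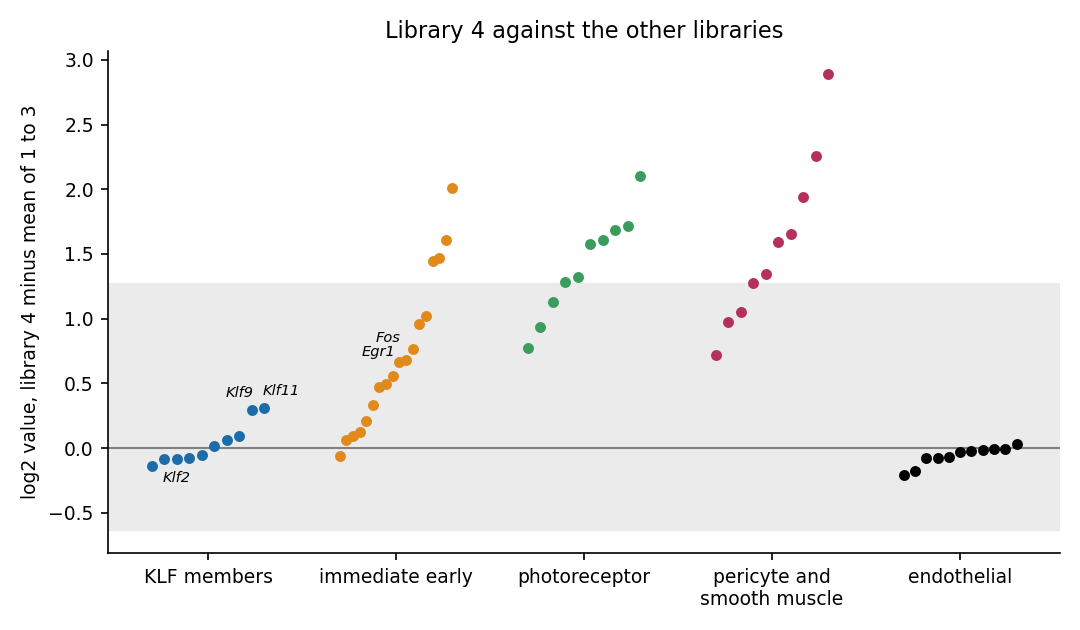
Log2 value in library 4 minus the mean of libraries 1 to 3 for each detected gene of 5 lists, sorted within each list; the grey band spans the 5th to 95th percentiles of all detected genes. The KLF members (-0.13 to 0.31) and the endothelial markers lie near 0, while 17 of 18 immediate early genes and all photoreceptor and pericyte markers lie above it.

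The genes that lead to KLF2 in flow signalling were detected along nearly the whole route. The list held 16 genes for the MEKK3, MEK5, ERK5 and MEF2 route and for the CCM complex that restrains it. Of these 15 were detected, beside 15012 of all 26822 genes. The mean was 1000 or more for 12, beside 35.2% of all detected genes. Map3k3 (MEKK3) had 2919, 3219, 2787 and 3800 normalised counts, Map2k5 (MEK5) 1127, 1180, 1177 and 1103, and Mapk7 (ERK5) 2007, 1989, 2027 and 1957. The MEF2 factors, which bind the Klf2 and Klf4 promoters, had means of 5198 ± 189 for Mef2a, 3379 ± 219 for Mef2c and 3448 ± 53.6 for Mef2d. Mef2b was not detected (1, 2, 0 and 6). The genes named from this and the following lists were picked by their mean as deposited or for their role, and no order within a list is drawn from them. Hdac7, a deacetylase that holds MEF2 back in ECs, had a mean of 5019 ± 165. The CCM genes, whose loss raises KLF2 and KLF4, were at 4441 ± 400 for Heg1, 2596 ± 44.8 for Krit1, 1753 ± 69.0 for Ccm2 and 943 ± 16.1 for Pdcd10. Library 4 minus the others had a median of -0.04 over this list.

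Flow sensors and the cofactors of the family were likewise detected in full. All 11 flow sensing genes passed and 10 reached 1000, among them Kdr (10933 ± 135, 1846 per kb), Plxnd1 (9738 ± 245, 1410 per kb) and Flt4 (6209 ± 416, 993 per kb). Of the 15 cofactors and ubiquitin ligases all were detected and 10 reached 1000, among them Ctbp1 (1037 per kb), Hdac2 (692 per kb) and Crebbp (246 per kb). Beside the counts of both lists, 15012 of all 26822 genes were detected and 35.2% of the detected genes reached 1000. Ctbp1, the partner of KLF3, had 4008, 4014, 4012 and 4181, and Ctbp2 had 2087, 2028, 2110 and 2254. Sin3a, the scaffold that the KLF9 to KLF16 group recruits, had 1327, 1341, 1458 and 1277.

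Genes that KLF2 and KLF4 are known to raise in cultured ECs stood mostly high. Of 15 such genes 14 were matched, all 14 were detected and 11 reached a mean of 1000, beside 35.2% of all detected genes. The others, named after their values were seen, were Aqp1 (48.5 per kb), Gja5 (46.8 per kb) and Nqo1 (41.2 per kb), each under the median of detected genes. Their median level was 976 per kb, at the 92.6th percentile. Among them were Tek (7981 ± 56.5, 1697 per kb), Cdh5 (5654 ± 158, 1415 per kb) and S1pr1 (4834 ± 54.3, 1587 per kb). Nos3, the endothelial nitric oxide synthase, had 4223, 4105, 4096 and 4207, and Thbd, the anticoagulant thrombomodulin, 3682, 3433, 3655 and 3310. Gja5, a gap junction gene of arteries that was picked out after its values were seen, had 332, 316, 358 and 58, and varied beyond the trend, with library 4 far below the rest. Klf2 and Klf4 in that library were within 0.09 log2 of the others.

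Genes that KLF2 and KLF4 are known to lower ranged widely, with a median level per kb under that of all detected genes. All 10 were detected and 3 reached a mean of 1000, near the share of 35.2% among all detected genes. The median was 65.5 per kb at the 33.7th percentile. Kdr (10933 ± 135), Icam1 (2358 ± 94.4) and Angpt2 were the 3. Angpt2, a vessel destabilising ligand of sprouting ECs, had 918, 1160, 1447 and 979. Edn1, the vasoconstrictor endothelin, had 579, 672, 660 and 455, and the adhesion gene Vcam1 had 530, 434, 539 and 455. Many genes of both lists are general EC genes or inflammatory genes, and with 1 group no relation to the level of a KLF gene could be tested.

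Genes linked to Klf9, Klf10 and Klf11 were looked at last, as hormone receptors with their targets and as TGF-beta signalling. Of 11 glucocorticoid, thyroid hormone and clock genes that bear on Klf9, 10 were detected and 5 reached 1000, beside 35.2% of all detected genes. Sgk1 (3875 ± 22.8), Tsc22d3 (2644 ± 110) and Nr3c1 (2607 ± 135), which encodes the glucocorticoid receptor, were 3 of these 5, and Fkbp5, a receptor target, had 1300, 1327, 1346 and 1408. Zbtb16 was not detected (10, 4, 8 and 0). Klf9 itself was the lowest member per kb (60.6). Of 15 genes of TGF-beta and BMP signalling, which bears on Klf10 and Klf11, all were detected and 13 reached 1000, beside the same 35.2%. Among them were the receptors Tgfbr2 (6400 ± 109, 782 per kb) and Eng (5790 ± 97.0, 1621 per kb) and the SMAD inhibitor Skil (4905 ± 454, 730 per kb).

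**Figure D5:**
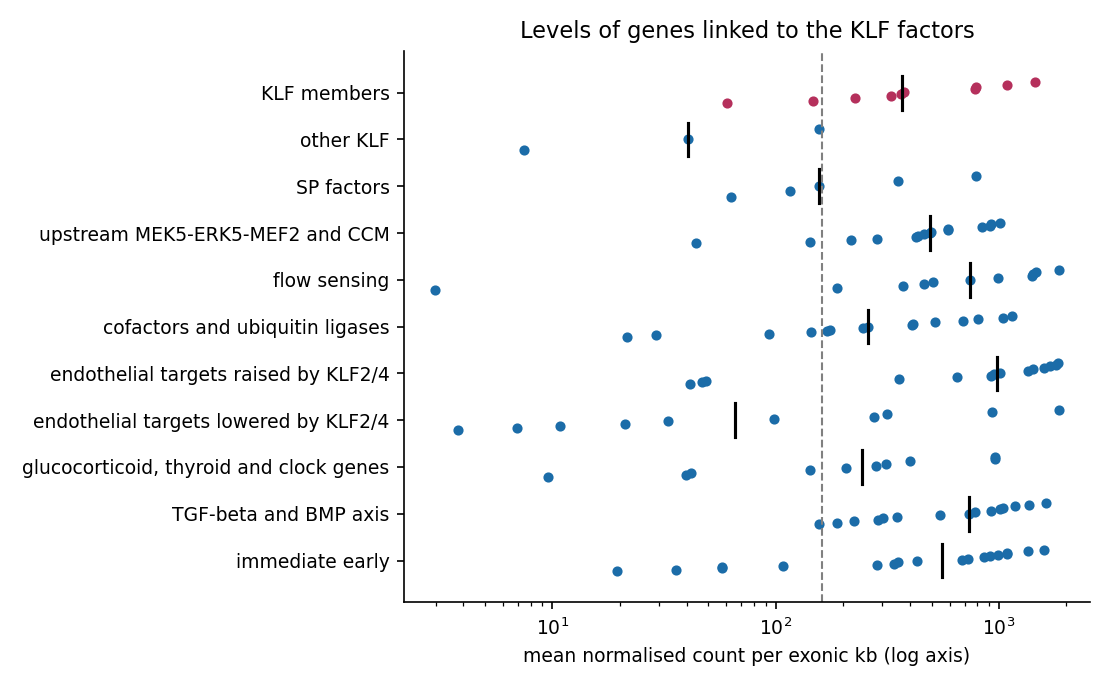
Mean normalised count per exonic kb (log axis) of each detected gene in the 11 lists, with a bar at each list's median and a dashed line at the median of detected genes (161). The list of genes raised by KLF2 and KLF4 has the highest median (976), and the KLF members lie around 369.

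The promoter windows show what sequence the members share upstream. RefSeq windows of 300 bases (250 before and 50 after the start, GRCm38.p6) were at hand for 8 members, not for Klf10 and Klf16. Their GC content ran from 58.3% to 77.7%, each above the median of 52.7% over 32851 windows. Both strands were searched for CACCC, the KLF site itself, which was in 5 of 8 members (57.5% of all windows), and for the GC box GGGCGG, in 7 of 8 (35.7%). The CCAAT box CCAAT was in 4 (37.4%), TATAAA in none (13.6%), the serum response CArG box in none (1.63%) and the MEF2 site CTANNNNTAG in 1, that of Klf2 (3.69%). Klf3 held the most, with 5 CACCC boxes and 6 GC boxes, and Klf6 held 4 CCAAT boxes.

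The stretches upstream of the start are shown for Klf2 and Klf4, the flow-induced pair, and for Klf9, the lowest member. Capitals mark the MEF2 site and GC boxes in Klf2 and Klf4, and the CACCC and CCAAT boxes in Klf9 (RefSeq, GRCm38.p6). They lie at chr8:72318812-72319032 (+ strand), chr4:55532476-55532725 (- strand) and chr19:23140976-23141225 (+ strand).
Klf2: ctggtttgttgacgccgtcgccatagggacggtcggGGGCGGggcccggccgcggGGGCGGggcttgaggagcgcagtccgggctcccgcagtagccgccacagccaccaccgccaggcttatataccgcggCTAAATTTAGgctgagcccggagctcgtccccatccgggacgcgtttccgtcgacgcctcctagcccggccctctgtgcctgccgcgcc
Klf4: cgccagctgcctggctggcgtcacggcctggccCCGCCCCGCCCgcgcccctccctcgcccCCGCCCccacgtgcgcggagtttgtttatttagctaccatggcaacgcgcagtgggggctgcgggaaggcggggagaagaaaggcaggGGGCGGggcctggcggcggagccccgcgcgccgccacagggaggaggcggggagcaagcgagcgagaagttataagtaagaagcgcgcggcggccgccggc
Klf9: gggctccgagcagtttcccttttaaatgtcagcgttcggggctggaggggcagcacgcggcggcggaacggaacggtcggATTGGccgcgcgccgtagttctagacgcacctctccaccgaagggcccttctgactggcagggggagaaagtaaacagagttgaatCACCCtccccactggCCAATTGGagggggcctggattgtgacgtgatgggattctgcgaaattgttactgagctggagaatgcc
The Klf2 stretch stops at the GENCODE start, which lies before the RefSeq start. It held a MEF2 match, 118 bases before the RefSeq start, and 2 GC boxes farther upstream, while the CACCC match of Klf2 lies 19 bases before that start, outside the stretch shown. That of Klf4 held 4 GC boxes, of which the first pair overlap, and no MEF2 match in this window. Klf9 held 1 CACCC box and 3 CCAAT boxes, and no GC box. A match in letters describes the sequence only and shows no binding in these cells.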

How the data were processed

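ECs (CD31+/CD45-) were sorted from pairs of P6 retinas. The study's methods, written for human ECs, describe stranded messenger RNA libraries read from 1 end. The authors deposited 1 table of read counts per Ensembl gene, normalised between libraries and rounded, which is treated here as a score with no fixed range. For these mouse samples normalisation, aligner, build, annotation and removal of duplicate reads are not given in the sources used here, FastQC excepted. The study's RNA-seq methods name STAR with a human genome and are written for human ECs, as is the labels' RNA text. Depth behind a value is therefore unknown and no counting interval or count model was used. Coordinates equalled GENCODE M21 (GRCm38) for 99.2% of the identifiers found there and for all 10 members.

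A symbol on several rows was represented by its highest row (26834 rows, 26822 genes). Levels between genes were divided by the union of exons, and differences taken on log2(value + 1), which understates those of low genes. Pairs of genes were tested by exact two-sided permutation (4 values against 4) with Benjamini-Hochberg adjustment over all pairs of detected genes (threshold 0.05). Any 2 genes that do not overlap reach its smallest p. Spread between libraries (SD, log2 scale) was set against a lowess trend (fraction 0.2, 3 robust iterations), called at a robust z above 3, with the calculation tested on simulated data. Named were all members, the other KLF and SP genes, the 3 highest and each undetected gene of the other lists, and a fixed set of pathway genes. The members and lists were chosen with earlier results of these data known. Alternatives were the scale, the longest transcript, a pseudocount of 10, size factors, other filters and trend, and leaving out each library. Python 3.11.15, pandas 2.3.3, scipy 1.17.1 and statsmodels 0.14.6 were used.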

Additional observations from a re-analysis of the deposited data

Results flagged for a closer look

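All 124 detected genes of the KLF, SP and pathway lists were examined for a library far from the other 3 (Dixon's test), a set widened after the values were seen. Of these 14 were found, where chance gives about 1 in 20 groups, or 6.2 genes. The share of all detected genes that would be found was not computed, so the excess over 6.2 is not read as a trait of these lists. None of the 10 KLF members was among the 14, which at 1 in 20 says nothing particular about so few genes. Library 4 lay apart for 9 genes. It was high for Egr1 (4516 normalised counts against 2720 to 2918), Jun (3456 against 2399 to 2578), Btg2 (3198 against 2223 to 2327) and Egr3 (162 against 48 to 60), all immediate early genes, and for Hdac5 (1556 against 1098 to 1120) and Ctbp1 (4181 against 4008 to 4014). It was low for Gja5 (58 against 316 to 358), Tgfb1 (2023 against 2241 to 2278) and Thra (829 against 901 to 913). Library 2 lay low for Klf12 (759 against 959 to 998) and Hdac3 (2195 against 2337 to 2364) and high for Fbxw7 (1071 against 865 to 894). Library 3 lay high for Klf8 (274 against 182 to 189) and low for Dbp (58 against 82 to 85).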

How the results depend on the processing

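The counts of members above the median (8), beyond the trend (0) and highest in library 4 (4) were the same under every alternative run for them, and the non-overlapping pairs ranged from 41 to 43. Genes detected in the pathway lists ranged from 107 to 118 of 122. With the longest transcript the levels per kb of Klf10 (1082 to 1361) and Klf13 (364 to 380) moved by more than their SD over libraries. As deposited, the log2 difference reversed for Klf2 over Klf10 (-0.63), Klf3 (-0.66) and Klf6 (-0.30), for Klf4 over Klf7 (-0.88) and for Klf11 over Klf13 (-0.68), by the length division itself. Klf11 over Klf13 also reversed with the longest transcript (-0.029), and Klf3 over Klf6 with a pseudocount of 10 (-0.00015). Leaving out 1 library gave -0.0108 to 0.028 for Klf3 over Klf6 and -0.066 to 0.076 for Klf11 over Klf13. With 3 libraries the exact test cannot go below p = 0.1, which took the threshold from every named pair that had passed it, and the longest transcript took it from Klf2 over Klf10 (p = 0.0571, exact). The libraries form 1 group, with no second group to block, and the exact test did not pair genes by library. Pairs of genes do share libraries, but a sign-flip test over 4 libraries has a smallest exact p of 0.125, so no pair would pass it. The unknown read depth limits what can be said of genes near a value of 10.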
